A study of Mus musculus with 2 samples.

Results

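Among the single cells sorted from neonatal mouse hearts, a set of stromal cells carried the genes Fmod, Prss35, Wif1 and Scx, and is described here as valve-type interstitial cells. Of 13502 cells kept in the series, 411 were such cells: 298 of 4991 in the postnatal day (P) 1 library and 113 of 8511 in the P7 library. Each library pooled 3 hearts of 1 litter. The hearts were intact and were digested in Collagenase II for 20 minutes at P1 and 45 minutes at P7, and live cells were sorted with 7-AAD, a dye that marks dead cells. The labels give neither strain nor genotype for these hearts. The study made these libraries to compare pathways of hypoxia and of hypoxia-inducible factors between P1 and P7 hearts. By its account the mouse heart can regenerate in the first week after birth, and this capacity is lost at P7.

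The cells were chosen by measured values. A barcode was kept with 200 to 8000 detected genes and at most 20% mitochondrial unique molecular identifiers (UMIs, one per captured RNA molecule). It counted as stromal with at least 10 UMIs of the collagen genes Col1a1 and Col3a1 together and none of the endothelial gene Pecam1 or the leukocyte gene Ptprc. A stromal cell was valve-type when at least 2 of Fmod, Prss35, Wif1 and Scx were detected, and more of them than of each of 3 other lists of 4 genes, which mark the Col26a1/Dpep1, Pi16/Clec3b and Gdf10/Wisp1 cells. Levels are UMIs summed over the cells of a library and given as CPM, counts scaled to a common library total of UMIs in those cells, with an exact Poisson 95% interval. The reads come from the 3′ end of each RNA, so levels were not divided by gene length. With 1 library per age there was no test of P1 against P7. Intervals cover counting error only, and age cannot be told apart from litter, digestion time or sex: Xist, the RNA of the inactive X chromosome, was found in all 298 P1 cells and in 0 of the 113 P7 cells, and Y-linked genes in 0 P1 cells and 99 P7 cells. Of 18 barcodes present in both libraries, 3 belonged to P1 valve-type cells and none to P7 valve-type cells. Without the shared barcodes the valve-type shares given below were 5.93% and 1.33% of kept cells.

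Valve interstitial cells are the fibroblast-like cells that fill the leaflets of the heart valves. They descend largely from the endocardial cushions and build a layered matrix of collagen, proteoglycan and elastic fibres that is remodelled after birth, when the load on the valves changes. Valve and tendon share parts of their programme, including the transcription factor Scx (scleraxis) and the transcription factor Sox9. Where in the heart the cells sat was not measured here.

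The valve-type share was higher in the P1 library. At P1 it was 5.97% of kept cells (95% exact Clopper-Pearson interval 5.33 to 6.66) and 16.0% of stromal cells (14.4 to 17.8). At P7 it was 1.33% of kept cells (1.10 to 1.59) and 3.76% of stromal cells (3.11 to 4.50). Depth was similar at both ages, with a median of 13318 UMIs per cell at P1 and 16037 at P7, and the summed UMIs were 4139770 and 1789125. When each cell was first thinned to 5000 UMIs the shares were 5.74% and 1.49%. The 3 other gates differed between the libraries as well. The Col26a1/Dpep1 cells made up 12.7% of kept cells at P1 and 3.68% at P7, the Pi16/Clec3b cells 5.39% and 21.6%, and the Gdf10/Wisp1 cells 1.52% and 0.928%. The valve-type shares depend on the comparison with the other lists. With at least 2 of the 4 genes whatever the other lists, they were 7.21% at P1 and 2.04% at P7. The shares of all gates also depend on which cells each digestion released, and that part was not tested.

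Fmod encodes fibromodulin, a small leucine-rich proteoglycan that binds collagen fibrils, and lies at chr1:134037254-134048277 (+ strand, GRCm38). It stood at 430 CPM (410 to 450) in the P1 library and 854 CPM (812 to 898) in the P7 library. Prss35 encodes a serine protease-like protein (chr9:86743649-86758443, + strand) and stood at 416 CPM (397 to 436) and 323 CPM (297 to 350). Scx (chr15:76457452-76459458, + strand) was at 240 CPM (226 to 256) and 290 CPM (266 to 316). Wif1 encodes a secreted protein that binds Wnt ligands (chr10:121033960-121100650, + strand), and was at 134 CPM (123 to 145) and 539 CPM (505 to 574). These 4 genes chose the cells, so their levels are a description. Wif1 differed most between the ages within the chosen cells, being detected in 40.3% of P1 cells and 69.9% of P7 cells.

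The 4 genes were seldom all present in a cell at P1. The most frequent combination there was Fmod with Prss35 and Scx but no Wif1, in 106 cells (35.6%), and all 4 were found in 53 cells (17.8%). At P7 the order was the opposite, with all 4 in 43 cells (38.1%) and Fmod, Prss35 and Scx alone in 16 cells (14.2%). Just inside the threshold, 93 cells at P1 and 24 at P7 had exactly 2 of the genes. Just outside it, 362 and 293 stromal cells had 1 gene, and 62 and 61 had 2 or more but as many or more genes of another list.

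Prg4, which encodes the lubricating proteoglycan lubricin (chr1:150449412-150466165, − strand), is a marker that the rule did not use. It reached 154 CPM (142 to 166) in the P1 cells and 339 CPM (312 to 367) in the P7 cells, against 0.311 CPM and 1.59 CPM in the pooled cells of the 3 other gates. It was detected in 31.9% of valve-type cells at P1 and 43.4% at P7. In endothelial cells, which should lack it, 0.406% and 0.447% of cells had a UMI, at median depths of 11075 and 8084 UMIs. After thinning each cell to 2000 UMIs the valve-type shares were 17.3% and 25.7%, and the endothelial shares 0.0692% and 0.0703%. Prg4 was carried with the rule genes at both ages. It chose no cell, but it was taken as a marker with earlier results of these data known. Its level is thus also a description and gives no independent support for the name of the cells.

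**Figure D1:**
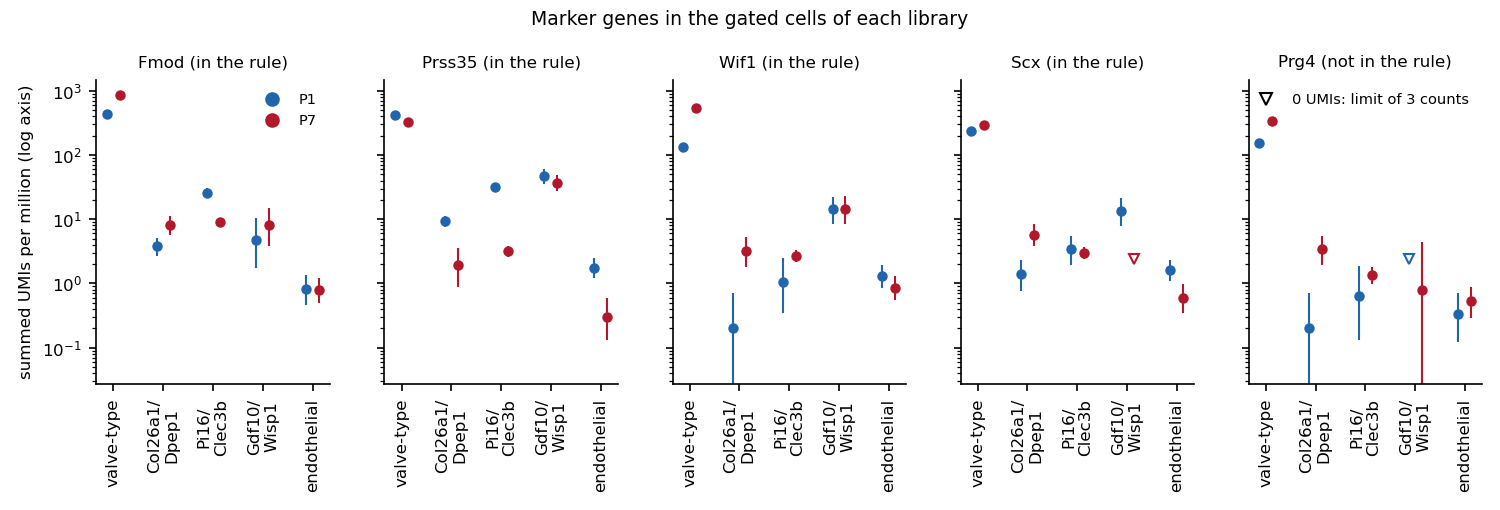
Summed UMIs as CPM (log axis) of the 4 rule genes and of Prg4 in each gate, for the P1 library (blue) and the P7 library (red). Bars are exact Poisson 95% intervals, and an open triangle marks 0 UMIs at the limit that 3 counts would give. Prg4, which chose no cell, is at 154 and 339 CPM in valve-type cells and below 5 CPM in every other gate shown.

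The pan-fibroblast markers Pdgfra, Col1a2, Dcn, Lum, Dpt, Tcf21, Gsn and Mfap4 were all detected in both libraries, and summed to 16720 CPM at P1 and 26357 CPM at P7, close to the 15842 CPM and 26369 CPM of the other gates. Dcn (decorin) was the most abundant of them, at 7540 CPM at P1 and 12471 CPM at P7. Markers of tendon and cartilage were partly present. Of the chondrocyte list, Matn1 was at 0 in both libraries, while the list summed to 277 CPM at P1 and 246 CPM at P7, against 12.01 CPM and 2.67 CPM in the other gates, with Col9a1 the most abundant. The tendon list summed to 69.1 CPM and 155 CPM, against 2.74 CPM and 17.8 CPM, with Mkx at 0 UMIs at P1 and 1 UMI at P7. At P1 this sum rested on few cells. The highest cell held 104 of the 171 Thbs4 UMIs, and for Tnmd the highest cell held 74 of 96. Of the tendon list, 2 or more genes were detected in 4 P1 cells and 6 P7 cells. The smooth muscle list summed to 2346 CPM at both ages, against 828 CPM and 556 CPM in the other gates, led by Tagln at 1441 CPM and 1241 CPM. At P7 the highest cell of each gene held 609 of 1705 Acta2, 406 of 2221 Tagln and 118 of 186 Myh11 UMIs. At P1 it held 358 of 3444, 263 of 5965 and 51 of 80, so the equal sums rested in part on single cells. Schwann cell markers were near 0 (2.42 CPM and 2.79 CPM), with Sox10 and Foxd3 at 0 in both libraries.

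Markers of several other cell types were found, some in a few cells and others more widely. The erythroid list stood at 1210 CPM in the P1 library and 40.8 CPM in the P7 library, and 1 P1 cell held 4937 of the 4990 haemoglobin UMIs. The immune list stood at 16.2 CPM at P1 and 223 CPM at P7, led by Lyz2, and 1 P7 cell held 364 of its 399 UMIs. Epicardial markers (86.2 CPM and 92.8 CPM, led by Upk3b and Msln) had 2 or more genes in 4 P1 cells and 3 P7 cells. The endothelial list was at 49.5 CPM and 55.9 CPM, led by Egfl7, and the cardiomyocyte list at 116 CPM and 68.2 CPM, led by Tnnt2. The pericyte list was at 212 CPM and 184 CPM, led by Rgs5. At least 2 pericyte genes were detected in 29.9% of P1 cells and 35.4% of P7 cells. For the endothelial list these shares were 10.7% and 17.7%, and for the cardiomyocyte list 10.1% and 7.08%. The lung list was at 43.0 CPM and 20.7 CPM, led by Tbx5, a gene that heart cells also express. Of its other genes, Sftpc had 36 UMIs in 32 P1 cells, Foxf1 had 13 UMIs and Hoxa5 12, and each had 0 UMIs at P7. Tbx4, Hsd11b1 and Ager had UMIs in both libraries. At least 2 lung genes were detected in 5.03% of P1 cells and 1.77% of P7 cells. The part of background RNA in these values was not tested.

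In each library the valve-type cells were compared with the pooled cells of the 3 other gates, 980 at P1 and 2227 at P7. Of 4967 genes with at least 50 UMIs in the valve-type cells of each library and outside the gate lists, 241 (4.85%) were at least 2-fold higher in both libraries and 106 (2.13%) at least 2-fold lower in both. Because the cells were selected on 4 genes and against 12 others, every gene that goes with those differs by construction, and no test was made. The minimum was set in the valve-type cells alone, so genes nearly absent from them were not counted, and the higher and lower numbers cannot be compared with each other. The 12 genes with the largest difference, taking the smaller of both libraries, were Prg4, Comp, Cyp26a1, Wnt16, Npy, Col9a3, Ahsg, Rspo3, Car3, Col9a1, Ucma and Kcnj15. Their log2 ratios over the other gates ran from 5.27 to 8.81 at P1 and from 4.99 to 8.95 at P7.

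**Figure D2:**
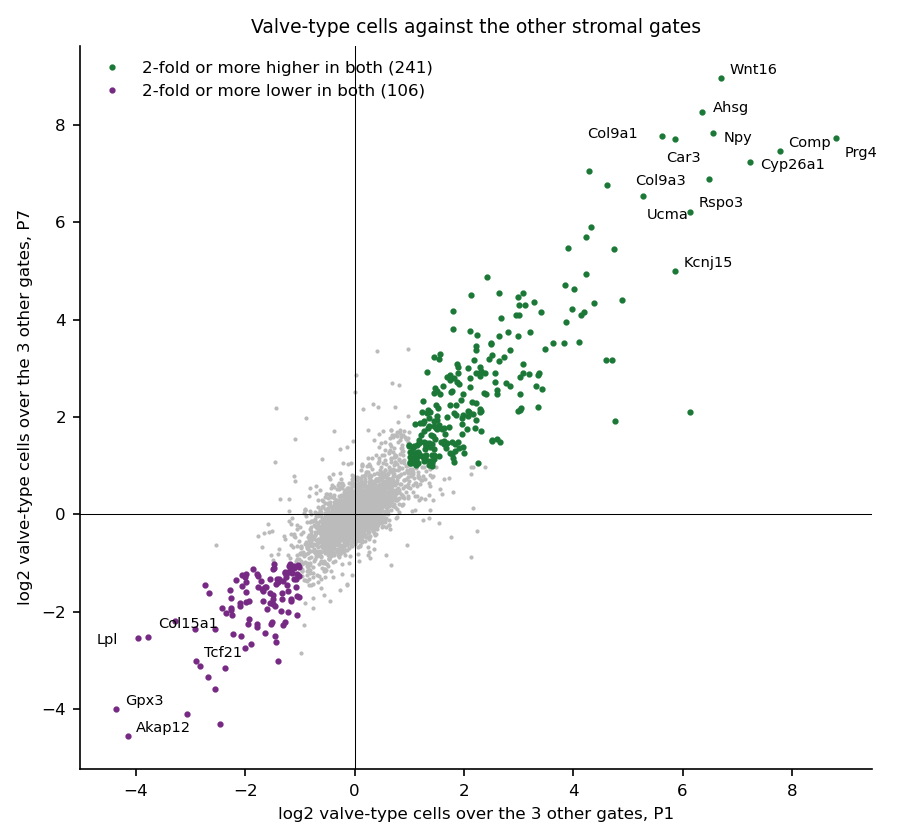
Log2 ratio of valve-type cells over the pooled cells of the 3 other gates at P1 (horizontal) and at P7 (vertical), 1 point per gene. Green points (241) are at least 2-fold higher in both libraries and purple points (106) at least 2-fold lower in both. The 12 genes named in the text sit at the upper right, and Akap12, Gpx3, Tcf21, Lpl and Col15a1 at the lower left.

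Matrix genes of a cartilage type made up part of this set. Col9a1, a chain of the fibril-associated collagen IX, was at 216 CPM (202 to 231) at P1 and 162 CPM (144 to 182) at P7, against 4.36 CPM and 0.728 CPM in the other gates. Col9a3, another chain of the same collagen, was at 179 CPM and 148 CPM and was found in 66.4% and 68.1% of the cells. Ucma, a small secreted cartilage protein, was at 30.0 CPM and 48.6 CPM. Neither of these chains reached a 2-fold difference between the ages. Col9a2, the remaining chain of collagen IX, differed from them on both points: it was at 56.5 CPM and 23.5 CPM (log2 ratio of P1 over P7 1.25, 0.79 to 1.78), below the 85.4 CPM and 29.5 CPM of the other gates. Col2a1, the main collagen of cartilage, was low, at 15.5 CPM and 5.59 CPM, and Acan, its large proteoglycan, was at 14.5 CPM and 28.5 CPM.

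Secreted signals formed another part. Wnt16, a Wnt ligand, was at 158 CPM (147 to 171) at P1 and 73.2 CPM (61.2 to 86.9) at P7, against 1.49 CPM and 0.135 CPM in the other gates. Rspo3, an R-spondin that strengthens Wnt signalling at the receptor, was at 225 CPM (211 to 240) and 71.0 CPM (59.2 to 84.5), against 3.17 CPM and 0.944 CPM. Npy, the precursor of neuropeptide Y, was at 155 CPM (143 to 168) and 449 CPM (419 to 482). It was found in 23.2% and 36.3% of the valve-type cells and in 1.01% and 0.893% of endothelial cells, and most valve-type cells had none. Ahsg, which encodes fetuin-A, a carrier of calcium and phosphate better known from liver, was at 206 CPM and 136 CPM, against 2.49 CPM and 0.432 CPM. The remaining named genes were the carbonic anhydrase Car3, at 642 CPM and 1155 CPM, and the potassium channel gene Kcnj15, at 110 CPM and 124 CPM.

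Cyp26a1 encodes an enzyme that breaks down retinoic acid. It was at 192 CPM (178 to 205) at P1 and 212 CPM (192 to 235) at P7 in the valve-type cells, against 1.24 CPM and 1.40 CPM in the other gates, and was found in 38.3% and 44.2% of the cells. In endothelial cells 0.271% and 0.447% had a UMI. The log2 ratio of P1 over P7 was -0.15 (-0.33 to 0.03), at -0.07 (-0.28 to 0.14) in the cells with Wif1 and 1.00 (0.53 to 1.54) in the cells without. The gene is known as a direct target of retinoic acid, through a response element close to its start, which is why its promoter is shown. The window of 300 bases (chr19:37697558-37697857, + strand, 250 before to 50 after the start, RefSeq, GRCm38.p6) reads 5′ to 3′, with capitals for a direct repeat of the core motif that retinoic acid receptors bind:

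Cyp26a1: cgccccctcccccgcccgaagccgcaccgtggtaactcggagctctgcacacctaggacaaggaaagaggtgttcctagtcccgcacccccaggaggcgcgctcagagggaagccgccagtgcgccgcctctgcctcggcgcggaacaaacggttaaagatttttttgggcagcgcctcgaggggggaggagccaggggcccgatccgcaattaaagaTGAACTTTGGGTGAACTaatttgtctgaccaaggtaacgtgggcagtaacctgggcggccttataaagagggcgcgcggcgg

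The repeat searched was 2 copies of the core motif separated by 5 bases of any kind, on either strand, where the core motif is A or G, then G, then G or T, then TCA. The match lies on the strand opposite to the gene, at positions 219 to 235 of the window, and ends 15 bases before the start site. Of 32851 promoter windows in the same table, 32 (0.0974%) held such a repeat. Of the 12 genes above and the 4 rule genes, 10 had a window, and Cyp26a1 was the 1 with a match. A match is a stretch of letters and does not show that a receptor bound there.

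Other genes of retinoic acid handling were then listed, after the value of Cyp26a1 was seen. Aldh1a2, the main enzyme that makes retinoic acid in the developing heart, was at 6.28 CPM at P1 and 12.9 CPM at P7 in the valve-type cells and at 263 CPM and 276 CPM in the other gates. Aldh1a1, a related enzyme, was at 108 CPM and 167 CPM, against 53.9 CPM and 63.5 CPM. The valve-type cells thus held the opposite order of Aldh1a2 and Cyp26a1 to the other stromal cells in both libraries. The receptor genes Rarb (24.2 CPM and 17.3 CPM) and Rarg (40.1 CPM and 48.6 CPM) were low, and Cyp26b1, a second degrading enzyme, was at 7.97 CPM and 11.7 CPM.

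Transcription factors with known roles in valve and tendon are given next. Tbx20, a T-box factor of the heart, was at 772 CPM at P1 and 639 CPM at P7, against 420 CPM and 301 CPM in the other gates. Msx1, a homeobox factor of the endocardial cushions, was at 121 CPM and 117 CPM, against 6.85 CPM in the other gates of each library. Meox1 was at 510 CPM and 559 CPM, and Sox9 at 285 CPM and 354 CPM, against 251 CPM and 215 CPM for Sox9 in the other gates. Of 32 factors measured, 2 were at least 2-fold higher in the P1 library (Egr2 and Snai1) and 1 in the P7 library (Tbx2), and the median log2 ratio was 0.11. Over all genes tested, 3.87% were past 2-fold towards P1 and 2.91% towards P7, so these counts are near the background. The Tbx2 ratio turned to 0.12 when the gate was applied after thinning.

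A few genes that were much lower than in the other gates are given here, picked after their values were seen. The summed pan-fibroblast list, to which Tcf21 belongs, was not lower. Tcf21, a factor of epicardium-derived fibroblasts, was at 107 CPM and 114 CPM in the valve-type cells, against 804 CPM and 917 CPM. Akap12, a scaffold of protein kinase A, was at 47.6 CPM and 36.3 CPM, against 846 CPM and 860 CPM. Gpx3, a secreted glutathione peroxidase, was at 35.3 CPM and 49.2 CPM, against 725 CPM and 792 CPM. Tcf21 still had a UMI in 34.2% and 46.9% of valve-type cells, and the part of background RNA in these shares was not tested. The 10% of cells with most Tcf21 held 74.2% of its UMIs at P1 and 54.9% at P7. Lpl, lipoprotein lipase, and Col15a1, a basement membrane collagen, were lower as well, at 59.9 CPM and 44.9 CPM at P1 and 87.8 CPM and 100.05 CPM at P7.

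Some genes outside the rule went along with the number of rule genes that a cell held, and others did not. In P1 cells with 2, 3 and 4 rule genes, Prg4 was at 46.5 CPM, 97.6 CPM and 438 CPM, and in P7 cells at 37.5 CPM, 177 CPM and 623 CPM. In stromal cells with 1 rule gene it was at 0.907 CPM and 1.01 CPM. The 62 P1 and 61 P7 stromal cells kept out of the gate by another list, with 2 or more rule genes, had Prg4 at 57.2 CPM and 144 CPM, above the gated cells with 2 rule genes, so the carriers of Prg4 were not all inside the gate. Cyp26a1 followed the same order in the gated cells at both ages, from 110 CPM to 330 CPM at P1 and from 57.7 CPM to 370 CPM at P7. Ahsg did not do so at P1, at 183 CPM, 221 CPM and 196 CPM. Car3 at P1 was at 394 CPM, 748 CPM and 681 CPM, but 1 cell with 3 rule genes held 168 of its 2659 UMIs. Without that cell the middle value was 679 CPM, close to the last, and no longer above it. Comp at P1 was highest with 3 rule genes, at 58.0 CPM. Col9a1 followed the order at P1 but not at P7, where cells with 3 rule genes had 216 CPM and cells with 4 had 132 CPM. Acta2, the smooth muscle actin gene, ran the other way at P1, at 1461 CPM, 776 CPM and 178 CPM. At P7 it was at 1427 CPM, 1112 CPM and 592 CPM, but 1 cell with 3 rule genes held 609 of its 1705 UMIs, and without that cell the middle value was 230 CPM and the order was lost. The P1 cells with more rule genes were also deeper, at medians of 11572, 13535 and 15085 UMIs at P1, while at P7 the medians were 15540.5, 14440 and 17105 UMIs without an order. The groups were set by the rule genes themselves, so these orders are a description. All cells with 4 rule genes held Wif1, while 106 of the 152 P1 cells with 3 and 16 of the 46 P7 cells with 3 lacked it. The orders can thus not be told apart from the split by Wif1 given below. The parts of depth and of Wif1 in these orders were not tested.

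**Figure D3:**
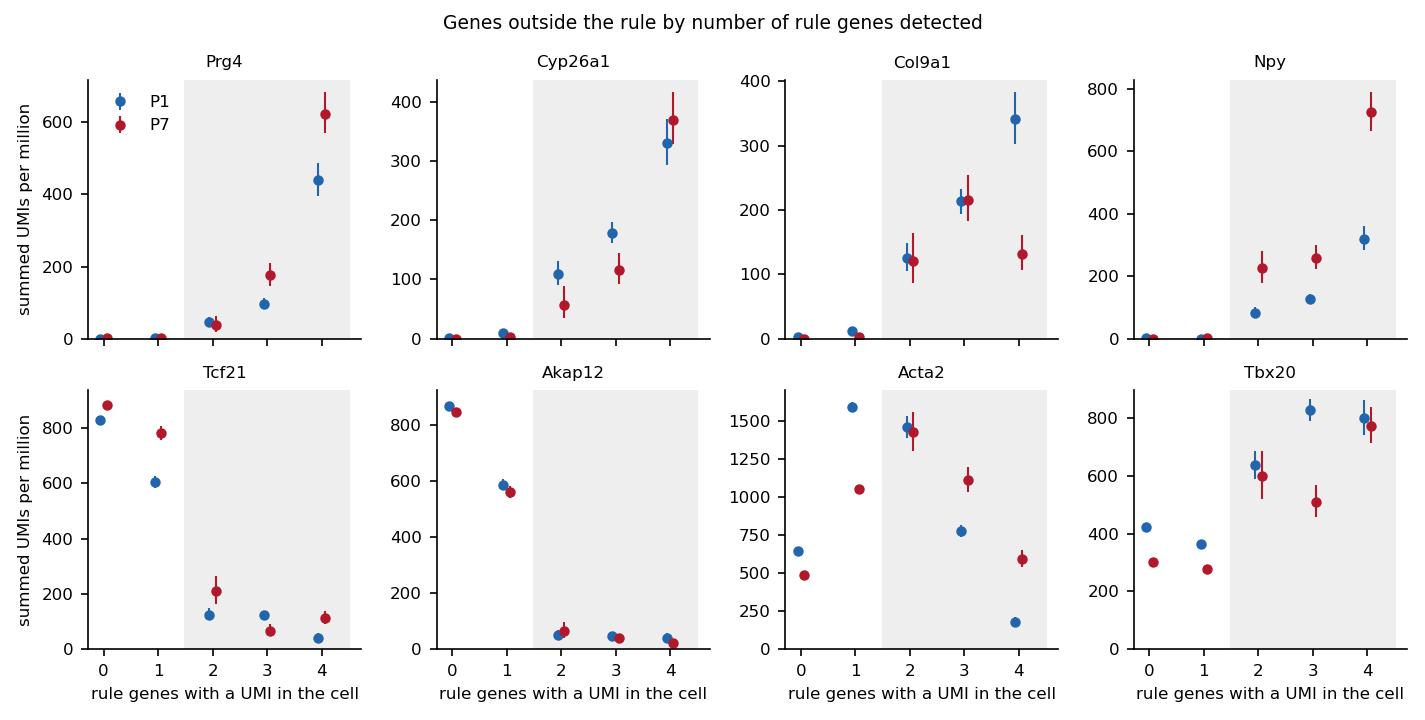
Summed UMIs as CPM of 8 genes outside the rule (vertical) in stromal cells grouped by how many of Fmod, Prss35, Wif1 and Scx they held (horizontal), for P1 (blue) and P7 (red), with exact Poisson 95% intervals. The shaded range holds the valve-type cells. Prg4 reaches 438 and 623 CPM with 4 rule genes, while Akap12 is at most 63.4 CPM in the shaded groups.

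The cells were then split by Wif1, after the values were seen. A Wif1 UMI was present in 120 of 298 cells at P1 and 79 of 113 at P7. Prg4 was at 291 CPM in cells with Wif1 and 58.5 CPM in cells without at P1, and at 461 CPM and 50.6 CPM at P7. Comp, cartilage oligomeric matrix protein, was at 58.4 CPM and 17.2 CPM at P1 and at 487 CPM and 86.3 CPM at P7. At P1, 1 cell with Wif1 held 52 of the 141 Comp UMIs, and without it the level with Wif1 was 28.0 CPM, short of 2-fold. Of 4967 genes, 12 were at least 2-fold higher with Wif1 in both libraries, among them Rspo3, Col9a1 and Adamts19, and 23 were at least 2-fold higher without it in both. Acta2 was higher in the cells without Wif1. It was at 1222 CPM without and 270 CPM with Wif1 at P1, and at 2217 CPM and 416 CPM at P7. Without the highest cell of each library the levels without Wif1 were 1090 CPM at P1 and 1114 CPM at P7. The cells without Wif1 also held nearly all UMIs of the mesothelial genes Msln and Upk3b, which rested on 5 and 7 cells at P1 and on 3 cells each at P7. Wif1 is itself a rule gene, so a cell without it had to hold 2 of the other 3.

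**Figure D4:**
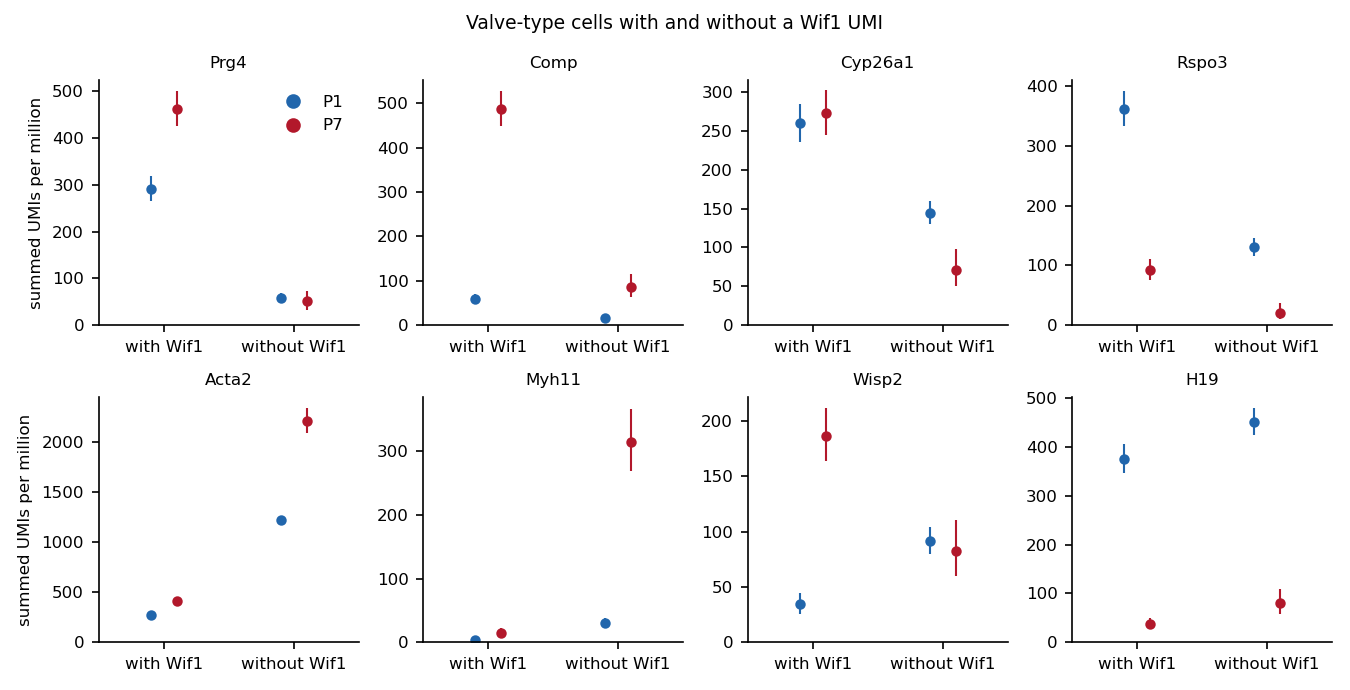
Summed UMIs as CPM of 8 genes in valve-type cells with and without a Wif1 UMI, for P1 (blue, 120 and 178 cells) and P7 (red, 79 and 34 cells), with exact Poisson 95% intervals. Prg4, Comp and Rspo3 are higher with Wif1 at both ages, and Acta2 and Myh11 higher without it.

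Between the 2 libraries, 10942 genes outside the gate lists had at least 20 summed UMIs in valve-type cells. Of these, 423 (3.87%) were at least 2-fold higher in the P1 library and 318 (2.91%) at least 2-fold higher in the P7 library. Ratios are log2 P1 over P7 with 0.5 counts added to each sum, and their intervals are exact conditional binomial 95% intervals. The quartiles of the ratio were -0.24 and 0.27, and the median was 0.016.

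Part of the tendon and valve matrix list stood higher in the P7 library. Of 19 measured genes of that list, 8 were at least 2-fold higher at P7 and 1 at P1, with a median log2 ratio of -0.56. The other 10 were within 2-fold, and 6 of the 19 had a positive ratio. Comp was at 34.1 CPM at P1 and 367 CPM at P7 (log2 ratio -3.43, -3.70 to -3.17). Cilp2, a cartilage intermediate layer protein, was at 4.11 CPM and 82.7 CPM (-4.30, -5.15 to -3.60). Both lay in few cells, Comp in 3.36% and 17.7% and Cilp2 in 2.68% and 12.4%. The gene 1500015O10Rik, which encodes augurin, was broader, at 263 CPM in 57.0% of cells at P1 and 1363 CPM in 86.7% at P7 (-2.37, -2.48 to -2.27), while its ratios in the Col26a1/Dpep1, Pi16/Clec3b and Gdf10/Wisp1 cells were -0.87, 0.60 and -2.15. Angptl7, a secreted angiopoietin-like protein, was at 69.3 CPM and 226 CPM, and Prg4 differed by a log2 ratio of -1.14 (-1.30 to -0.98). For Prg4 the ratio was -0.66 in cells with Wif1 and 0.19 in cells without. The exception towards P1 was Tnmd, tenomodulin, with 96 UMIs in 5 P1 cells, 74 of them in 1 cell, and it turned to -1.35 when the other lists were ignored.

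Of the small leucine-rich proteoglycans, which coat collagen fibrils and set their spacing, 5 of 12 measured genes were at least 2-fold higher in the P7 library and none in the P1 library. Fmod, a member, was left out as a rule gene. Prelp, which links collagen to basement membranes, was at 238 CPM at P1 and 627 CPM at P7 (-1.40, -1.52 to -1.27), in 77.2% and 92.0% of cells. Kera, Epyc, Chad and Omd were the others, all in at most 12.4% of cells of either library, and Epyc turned to 0.57 in the cells without Wif1. The abundant members differed less. Dcn had a log2 ratio of -0.73 and Bgn (biglycan) of -0.44, Lum (lumican) was level at -0.01, and Aspn (asporin) was at 519 CPM and 387 CPM. The median of the list was -0.70.

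The matricellular list had 4 of 21 genes at least 2-fold higher at P7, Cilp2, Comp, Wisp2 and Tnxb, and none at P1. Cilp2 and Comp were also counted in the tendon and valve list, as were Kera and Chad of the small leucine-rich proteoglycans. The differences of these 3 lists are thus partly those of the same genes. Tnxb rested on 27 UMIs at P1 and 26 at P7. Wisp2 was at 67.9 CPM at P1 and 155 CPM at P7 (-1.19, -1.44 to -0.95). This difference lay in the cells with Wif1, at -2.44 (-2.89 to -2.03), and was 0.13 (-0.33 to 0.65) in the cells without. The collagens showed no common direction, with 3 of 21 higher at P1 (Col2a1, Col5a3 and Col9a2), 1 at P7 (Col11a2) and a median of 0.0031. Col5a3 rested on 30 and 5 UMIs and turned to -0.69 when the other lists were ignored. Col1a2 was at 4631 CPM and 8155 CPM (log2 ratio -0.82). None of 15 elastic fibre genes and none of 15 proteases and protease inhibitors reached 2-fold.

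**Figure D5:**
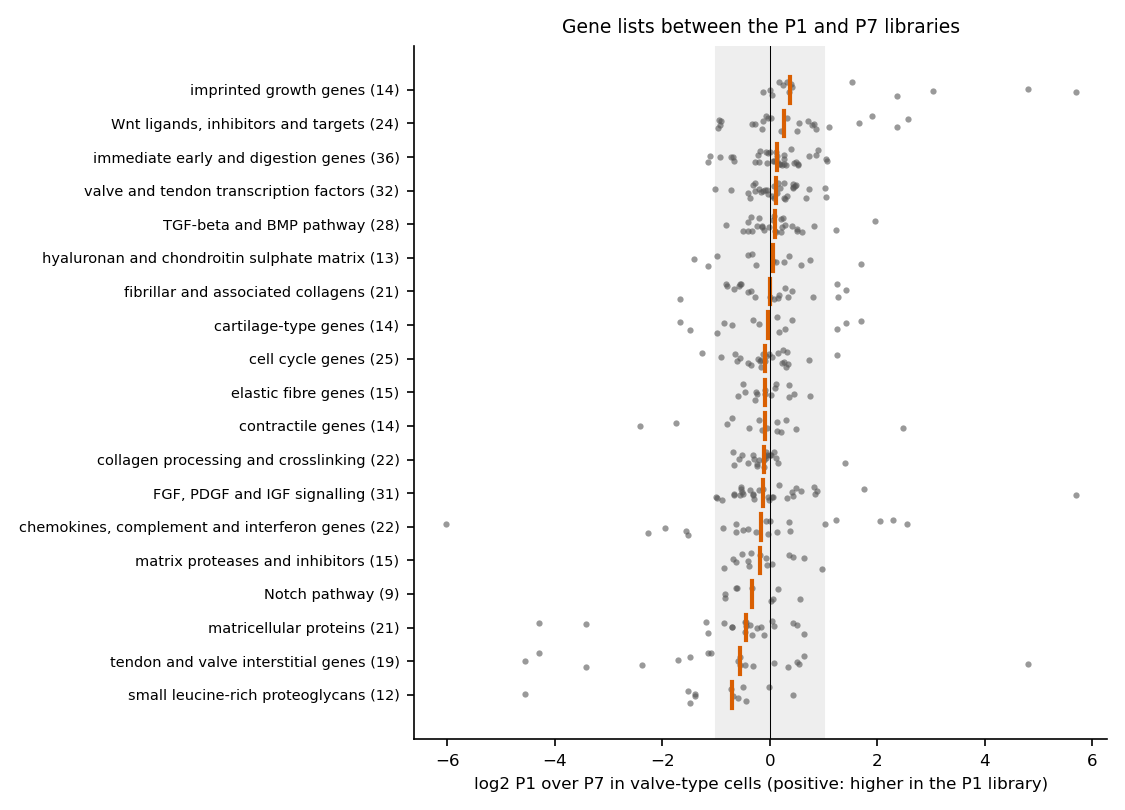
Log2 ratio of P1 over P7 in valve-type cells for each measured gene (points) of 19 lists, with the number of measured genes in parentheses and the median as an orange bar. Points outside the grey band are past 2-fold. Small leucine-rich proteoglycans have the lowest median (-0.70) and imprinted growth genes the highest (0.38).

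The Wnt list leaned the other way, with 5 of 24 measured genes at least 2-fold higher in the P1 library and none in the P7 library. Rspo3 had a log2 ratio of 1.66 (1.39 to 1.94) and Wnt16 of 1.11 (0.84 to 1.40). The other 3 were inhibitors: Notum, an enzyme that strips Wnt of its lipid, at 11.4 CPM in 11.4% of P1 cells and 2.79 CPM at P7, and Sost (sclerostin) and Dkk2, each in under 3% of cells. Axin2 and Lef1, genes that respond to Wnt in many tissues, were at 22.9 CPM and 38.9 CPM at P1 and 12.9 CPM and 21.2 CPM at P7, short of 2-fold. Sfrp2, a secreted Wnt-binding protein, was at 1082 CPM and 2122 CPM (-0.97, -1.03 to -0.91), and Frzb and Wnt5a also leaned to P7, at -0.91 and -0.93. The secreted inhibitors thus did not share a direction. The median of the list was 0.26, but it turned to -0.27 with cells thinned to 2000 UMIs and to -0.25 in the cells without Wif1.

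Imprinted growth genes, several of which drive fetal growth and are shut down after birth, stood higher at P1. Of 14 measured, 5 were at least 2-fold higher in the P1 library, none in the P7 library, and 13 had a positive ratio. H19, a long noncoding RNA, was at 420 CPM in 62.8% of cells at P1 and 50.9 CPM in 22.1% at P7 (3.04, 2.74 to 3.36). Igf2, the fetal growth factor next to it, had 59 UMIs in 44 cells at P1 and 0 UMIs at P7, which is at least 8.50-fold higher against a floor of 3 counts. Peg3 was at 209 CPM and 72.1 CPM (1.53, 1.27 to 1.81). Dlk1 was at 117 CPM in 15.4% of cells and 3.91 CPM in 4.42%, and 1 P1 cell held 118 of its 486 P1 UMIs. Plagl1 was the fifth, at 15.7 CPM and 2.79 CPM. Meg3, a noncoding RNA at 999 CPM and 763 CPM, and Gnas, with a log2 ratio of 0.04, did not reach 2-fold. H19 was also higher at P1 in the Col26a1/Dpep1, Pi16/Clec3b and Gdf10/Wisp1 cells, at log2 ratios of 0.96, 1.88 and 1.93.

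Some growth factor and matrix-organising genes also stood higher at P1. They are single genes, and whether such genes were enriched was not tested. Bmp6, a bone morphogenetic protein, was at 85.3 CPM at P1 and 36.3 CPM at P7 (1.22, 0.85 to 1.64), and Bmp5 at 7.49 CPM and 1.68 CPM; these were the 2 of 28 genes of the TGF-beta and BMP list past 2-fold. Igfbp2, an IGF-binding protein, was at 55.3 CPM and 16.2 CPM. Hapln1, which links hyaluronan to proteoglycans, was at 84.1 CPM in 46.3% of cells and 25.7 CPM in 24.8% (1.70, 1.26 to 2.19). P4ha3, a prolyl hydroxylase of collagen, was at 101 CPM and 38.01 CPM (1.40, 1.04 to 1.80). Vcan (versican), at 915 CPM and 543 CPM, and Fbn2 (fibrillin 2), at 625 CPM and 373 CPM, leaned to P1 without reaching 2-fold. Igf1 was high at both ages, at 787 CPM and 562 CPM, against 85.9 CPM and 76.2 CPM in the other gates.

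The remaining lists showed little or mixed difference. Over all genes tested, 3.87% were past 2-fold towards P1 and 2.91% towards P7. Several of the counts below are near those shares, and in a short list 1 gene is enough to exceed them. Of 25 cell cycle genes, Bub1 was past 2-fold towards P1 and Aurka towards P7, each in at most 5.37% of cells and each reversed under an alternative setting. The median of this list was -0.09, but it ran from -1.39 to 3.20 over the settings and is thus unstable. Top2a was at -0.90 in cells with Wif1 and at 2.72 in cells without, the latter on 8 UMIs at P7. Cells with 3 or more of Mki67, Top2a, Cdk1, Birc5 and Cenpf detected were 6.38% at P1 (3.88 to 9.78) and 4.42% at P7 (1.45 to 10.02). Of 14 contractile genes, Des was past 2-fold towards P1 and Myh11 and Mylk towards P7, and 118 of the 186 Myh11 UMIs at P7 lay in 1 cell; its ratio turned to 0.75 when the gate was applied after thinning. Of 9 Notch genes none reached 2-fold. In the FGF, PDGF and IGF list, Igf2 and Igfbp2 were higher at P1 and Etv1 at P7, of 31. In the hyaluronan and chondroitin sulphate list, Hapln1 was higher at P1, and Cemip and Prg4 at P7, of 13. Of 14 cartilage-type genes, 3 (21.4%) were higher at P1 (Hapln1, Col2a1 and Col9a2) and 2 (14.3%) at P7 (Col11a2 and Chad). For Chad, 1 cell held 27 of its 38 UMIs at P1. Of 22 genes of collagen processing, P4ha3 alone reached 2-fold. Of 36 genes that respond to digestion or early stimulation, Myc and Egr2 were past 2-fold towards P1 and Hsph1 and Nr4a3 towards P7, with a median of 0.14.

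The 10 largest ratios towards each age held many genes that rested on 1 or a few cells. Towards P7, Ccl4, Ccl7, Cxcl2, C1qa, C1qb, Lyz2 and Fcer1g had between 91.2% and 100% of their P7 UMIs in 1 cell. Without the highest cell of each library none of these 7 genes was past 2-fold except Ccl4, left with 1 UMI in each library. Towards P1, Hba-a1, Hbb-bs and Hbb-bt had 99.0%, 98.9% and 98.9% of their UMIs in 1 cell, and without the highest cell of each library the ratios were -1.50, -1.50 and -1.21, the last on 4 UMIs in each library. Of 22 chemokine, complement and interferon genes, 5 were past 2-fold in each direction, and of these Cxcl14 and Ccl7 lay in at most 2 cells of either library. The rest of the 10 towards P1 were Tsix, Igf2, Dlk1, Tnmd, Hist1h2ap, Gm6093 and Rnaset2b, and towards P7 Gm10320, Cilp2 and Comp.

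Tsix, the antisense partner of Xist, had 87 UMIs at P1 and 0 at P7, and cannot be told apart from the sex of the hearts. Gm10320 had 4 UMIs at P1 and 188 at P7, and differed by log2 ratios between -6.99 and -8.69 in the 3 other gates as well. The differences in Tsix and Gm10320 were thus found in the 3 other gates too and were not particular to the valve-type cells. Stromal cells outside every gate were not compared. To name genes that did not rest on few cells, those found in at least 20% of the cells of the higher library, with at least 50 UMIs there, and past 2-fold also without the highest cell were counted after the values were seen. There were 95 towards P1 and 48 towards P7, numbers that cannot be compared with each other, since a fixed number of UMIs is a lower level in the P1 sum, which was larger. Among them, beside genes given above, Ucp2, a mitochondrial uncoupling protein, was at 293 CPM at P1 and 85.5 CPM at P7. Pamr1, a secreted protease-like protein, was at 56.0 CPM at P1 and 168 CPM at P7. Both differed in the same direction in the Col26a1/Dpep1, Pi16/Clec3b and Gdf10/Wisp1 cells. The log2 ratios there were 1.43, 1.54 and 0.80 for Ucp2 and -1.73, -1.57 and -1.09 for Pamr1.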

How the data were processed

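The authors aligned 10x Chromium 3′ reads to mm10/GRCm38 with Cell Ranger 3.1.0 and deposited, for each library, UMI counts per gene and barcode, which are the values used here. The totals were 63585504 UMIs over 7836 barcodes at P1 and 98346195 over 9077 at P7. The study describes its own removal of barcodes with very high mitochondrial content without a limit in the sources used here; 20% was used.

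The valve-type cells, the gene lists and the rule for naming genes were chosen with earlier results of these data known. Named genes were the rule genes and Prg4, the top 10 ratios in either direction among genes reaching 50 UMIs, the top 4 per list, the 12 furthest above the other gates, and the tendon, valve and check lists. Xist, the Y-linked genes, mitochondrial genes and gate genes were left out of the ranking.

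UMIs were summed over cells in Python 3.11.15 (NumPy 2.4.6, SciPy 1.17.1, pandas 2.3.3). Shares have exact Clopper-Pearson 95% intervals. No doublet caller was used in the values reported; the limit on genes and the absence of Pecam1 and Ptprc were the only guards, and a doublet score (Scanpy 1.11.5) was an alternative. The code was tested on simulated data. Genes named outside this rule (further list members, the Wif1 split, retinoic acid genes, transcription factors, genes lower than in the other gates and genes found in many cells) were chosen after their values were seen. Gene positions are from GENCODE for GRCm38 and promoter sequences from RefSeq. Some genes are not reported here.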

Additional observations from a re-analysis of the deposited data

Results flagged for a closer look

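Serpinb6b, a serine protease inhibitor gene, went in opposite directions in the valve-type cells and in the 3 other gates. In valve-type cells its log2 ratio of P1 over P7 was -1.81 (27.8 CPM at P1 and 97.3 CPM at P7), while in the Col26a1/Dpep1, Pi16/Clec3b and Gdf10/Wisp1 cells it was 1.92, 1.36 and 2.30. It was found in 22.5% of valve-type cells at P1 and 46.0% at P7. The difference between the gates was not tested, since each age had 1 library.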

How the results depend on the processing

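No paired analysis was possible because each age had 1 library. Of 19 alternatives, 15 were planned and 4 were chosen after seeing the data. The valve-type shares at P1 and P7 were 4.11% and 1.05% with at least 3 of the 4 genes, 7.21% and 2.04% with at least 2 whatever the other lists, 4.51% and 0.963% without cells holding 2 or more markers of another type, and 7.33% and 1.65% in cells of 5000 to 30000 UMIs. Genes past 2-fold towards P1 and towards P7 numbered 210 and 143 with at least 50 summed UMIs, 1536 and 1783 with no minimum, and 168 towards P7 with cells thinned to 2000 UMIs. Genes at least 2-fold higher than in the other gates in both libraries numbered 93 in cells without Wif1. Under the other settings these values kept within the main interval or 1.5 times.

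Of 63 named genes past 2-fold, 24 kept at least 20 summed UMIs, or the minimum of the setting, in every setting. Of these, 19 kept their direction and 12 stayed past 2-fold in all. The other 39 had no value in at least 1 setting; among them, without the highest cell, Hbb-bt (-1.21), Ccl7 (0.37), Cxcl2 (0.01) and Fcer1g (0.23) turned on fewer UMIs than that minimum. Hba-a1 and Hbb-bs turned to -2.12 and -1.35 with the gate applied after thinning, -1.66 and -1.69 without the 6% of cells of highest doublet score, -1.50 and -1.50 without the highest cell, and -1.74 and -1.29 in cells with Wif1. Tnmd (-1.35) and Col5a3 (-0.69) turned when the other lists were ignored, Myh11 (0.75) and Tbx2 (0.12) with the gate after thinning, Bub1 (-0.43) without cells holding other markers, and Aurka (3.48), Epyc (0.57), Prg4 (0.19) and Wisp2 (0.13) in cells without Wif1. The cause was not tested. Of 19 list medians, 8 kept their sign in every setting, among them those of the small leucine-rich proteoglycans (-0.93 to -0.43), the tendon and valve genes (-1.35 to -0.17) and the imprinted genes (0.35 to 0.52). With 34 P7 cells lacking Wif1, genes under about 50 UMIs are poorly resolved there.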

Other observations

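A few valve-type cells carried a matrix profile of their own: 2 or more of Comp, Cilp2, Chad, Kera and Thbs4 were detected in 9 of 298 cells at P1 (3.02%, 1.39 to 5.66) and in 17 of 113 at P7 (15.04%, 9.01 to 23.0). The genes were picked after their values were seen, and no test was made. Prg4 and Wif1 were found together in 18.8% of the cells at P1 (14.5 to 23.7) and 36.3% at P7 (27.4 to 45.9), and neither was found in 46.6% and 23.0%.

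Several abundant genes separated the valve-type cells from the other gates at both ages without being named by the rule for naming genes. Clu (clusterin) was at 469 CPM at P1 and 296 CPM at P7, against 23.3 CPM and 4.94 CPM. Ptx3, a pentraxin of innate defence that binds hyaluronan-rich matrix, was at 351 CPM and 310 CPM, against 18.7 CPM and 10.1 CPM. Tgfbi, a TGF-beta-induced matrix protein, was at 290 CPM and 274 CPM, against 20.4 CPM and 24.0 CPM. Runx1 was at 68.6 CPM and 56.5 CPM, against 4.23 CPM and 2.27 CPM. Dkk3 was at 401 CPM and 392 CPM, against 101 CPM and 95.6 CPM.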
